A study of Arabidopsis thaliana with 12 samples.

Results

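Transcript levels of 9 genes that set the time of flowering were measured by mRNA sequencing in Arabidopsis thaliana seedlings. The genes are the 6 members of the FLC clade, which are FLC (AT5G10140), MAF1 (AT1G77080), MAF2 (AT5G65050), MAF3 (AT5G65060), MAF4 (AT5G65070) and MAF5 (AT5G65080), their partner SVP (AT2G22540), and the integrators FT (AT1G65480) and SOC1 (AT2G45660). They were chosen by name and not by a filter on their values, but with earlier results of these data known. They make up 9 of the 33602 genes and 31189 transposable elements (TEs) in the table. The seedlings were 2 weeks old, had been grown at 22 °C, and had 1 of 4 genotypes with 3 libraries each. These were the mutants pkl-1 (pkl), nrpe1-11 (nrpe1) and nrpd1-3 (nrpd1), and WT. PKL (PICKLE) codes for a chromatin remodeler of the CHD family, and NRPD1 and NRPE1 for the largest subunits of the plant RNA polymerases IV and V, which act in RNA-directed DNA methylation (RdDM). The labels give cycles of 12 h of light and 12 h of dark, whereas the general growth methods of the study give a longer day, so the day length behind the FT values is not settled. Each mutant is represented by a single allele, and the study places pkl-1 in the Col ecotype. Whole seedlings were used, so that fewer cells of a type and less RNA per cell cannot be told apart in any value below.

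FLC is a MADS-box transcription factor that delays flowering by repressing FT and SOC1, often in a complex with SVP, and prolonged cold silences it through Polycomb proteins and the mark H3K27me3. The MAF genes are its closest relatives and also act mainly as floral repressors. MAF1 is also known as FLM, and works with SVP in the response to ambient temperature. FT is made in the phloem of leaves and moves to the shoot apex, where with FD it turns on SOC1 and the genes of the floral meristem.

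FLC lies on the minus strand of chromosome 5 (chr5:3173382-3179448, TAIR10.1), and MAF2, MAF3, MAF4 and MAF5 stand head to tail on the plus strand of the same chromosome, in a stretch of 20366 bases (chr5:25982254-26002619). The gaps between these 4 genes are 873, 780 and 1301 bases. MAF1 is at chr1:28955483-28960234 (plus), FT at chr1:24331373-24333999 (plus), SVP at chr2:9579647-9583901 (plus) and SOC1 at chr2:18807505-18811125 (minus). Within the array the coding sequences of MAF2 and MAF3 were 93.6% identical and those of MAF4 and MAF5 were 84.6% identical, while FLC was 72.3% to 77.7% identical to the 5 MAF genes. The 250 bases before the annotated start of FLC and of the 4 array genes are printed from the RefSeq assembly TAIR10.1, because the levels of FLC, MAF4 and MAF5 differed most between genotypes and those of MAF2 and MAF3 little. Each is written 5′ to 3′ on the strand of its gene, at chr5:25991943-25992192 (MAF4), chr5:25997254-25997503 (MAF5), chr5:25982004-25982253 (MAF2), chr5:25987059-25987308 (MAF3) and chr5:3179449-3179698 (FLC, minus). Capitals mark runs of at least 12 bases that MAF4 shares with MAF5, or MAF2 with MAF3.
MAF4: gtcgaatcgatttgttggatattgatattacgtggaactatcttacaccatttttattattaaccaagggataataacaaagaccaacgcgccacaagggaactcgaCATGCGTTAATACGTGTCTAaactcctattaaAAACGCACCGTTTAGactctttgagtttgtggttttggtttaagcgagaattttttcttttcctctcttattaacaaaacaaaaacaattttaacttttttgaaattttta
MAF5: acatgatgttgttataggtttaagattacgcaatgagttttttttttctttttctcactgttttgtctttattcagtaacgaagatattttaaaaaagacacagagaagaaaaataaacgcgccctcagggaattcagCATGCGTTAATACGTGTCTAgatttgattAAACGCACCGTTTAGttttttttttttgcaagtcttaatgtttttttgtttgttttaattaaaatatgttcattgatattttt
MAF2: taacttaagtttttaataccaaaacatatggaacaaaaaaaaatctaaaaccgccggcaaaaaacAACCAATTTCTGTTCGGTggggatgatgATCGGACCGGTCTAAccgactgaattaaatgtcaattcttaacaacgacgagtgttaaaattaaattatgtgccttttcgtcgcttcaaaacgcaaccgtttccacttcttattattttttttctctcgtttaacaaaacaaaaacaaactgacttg
MAF3: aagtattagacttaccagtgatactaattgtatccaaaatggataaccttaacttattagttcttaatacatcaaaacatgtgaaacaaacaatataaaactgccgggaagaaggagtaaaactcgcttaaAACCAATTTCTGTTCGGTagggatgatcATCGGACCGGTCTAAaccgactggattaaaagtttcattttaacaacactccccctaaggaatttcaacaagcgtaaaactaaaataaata
FLC: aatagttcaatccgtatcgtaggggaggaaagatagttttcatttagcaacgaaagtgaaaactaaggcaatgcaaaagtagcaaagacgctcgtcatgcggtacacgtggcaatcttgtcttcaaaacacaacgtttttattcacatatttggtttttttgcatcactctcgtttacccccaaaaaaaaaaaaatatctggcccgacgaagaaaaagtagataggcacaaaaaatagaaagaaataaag

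MAF4 and MAF5 shared runs of 20 bases (CATGCGTTAATACGTGTCTA) and 15 bases (AAACGCACCGTTTAG), in the same order. Each run was found in only 2 of the 27443 windows of this length before nuclear protein-coding genes. Each window was read on the strand of its gene, and matches on the opposite strand were not counted. The run of 20 bases began 143 bases before the start of MAF4 and 112 bases before that of MAF5. MAF2 and MAF3 shared runs of 18 and 15 bases, which were in 3 and 2 of the 27443 windows, and both also shared runs with MAF1, of up to 35 bases for MAF2 and up to 20 for MAF3. Across these pairs of the array, only MAF2 and MAF4 shared a run, of 18 bases close to the start. The FLC window shared no run of 12 bases or more with the other 8 genes. These matches describe the letters of the windows. Whether they bear on the levels below was not tested.

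Levels are given as RPKM, which are reads per kilobase of the gene scaled to the total of the library. Library totals were 15242073 to 21475250 reads, except for nrpe1 replicate 2 with 7204299, so that values of low genes are least precise there. A read number is the whole number of reads behind an RPKM value, recovered from the steps between the values. The mRNA of NRPE1 was lower in the 3 nrpe1 libraries (0.394 to 0.874 RPKM) than in the other 9 (1.42 to 2.64). NRPD1 mRNA was at 0.764 to 1.17 RPKM in nrpd1 and at 1.15 to 2.44 in the other 9 libraries, and PKL mRNA was at 20.1 to 26.6 in pkl and at 16.1 to 22.5 elsewhere, so the PKL level did not check the pkl labels. The summed level of 4 floral organ genes (AP3, PI, AG and SEP3) was 3.01 to 7.54 RPKM over all libraries, against 27316 to 43087 for 5 genes of leaf mesophyll. Differences were tested with limma on log2(RPKM + 0.1) over 23669 features, and calls, higher or lower, needed an adjusted p under 0.05 together with a change of at least 2-fold.

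In WT the 9 genes fell into an abundant and a scarce group. SVP had the highest mean level (58.2 RPKM ± 13.0, SD, n = 3), followed by SOC1 (44.9 ± 10.6), MAF1 (38.1 ± 1.37), MAF2 (25.8 ± 4.97) and MAF3 (13.6 ± 0.747). MAF5 (2.88 ± 1.20), FLC (2.62 ± 0.153), MAF4 (2.32 ± 0.917) and FT (1.66 ± 0.440) were far lower. RPKM is per length, so these levels can be set against each other. The libraries of SVP and SOC1 overlapped, as did those of SOC1 and MAF1, and among the scarce genes FLC lay above FT while all other pairs overlapped. MAF2 lay below MAF1 and MAF3 below MAF2 in all WT libraries. The plot of levels by library shows that the genotypes differed mainly in the scarce group.

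**Figure D1:**
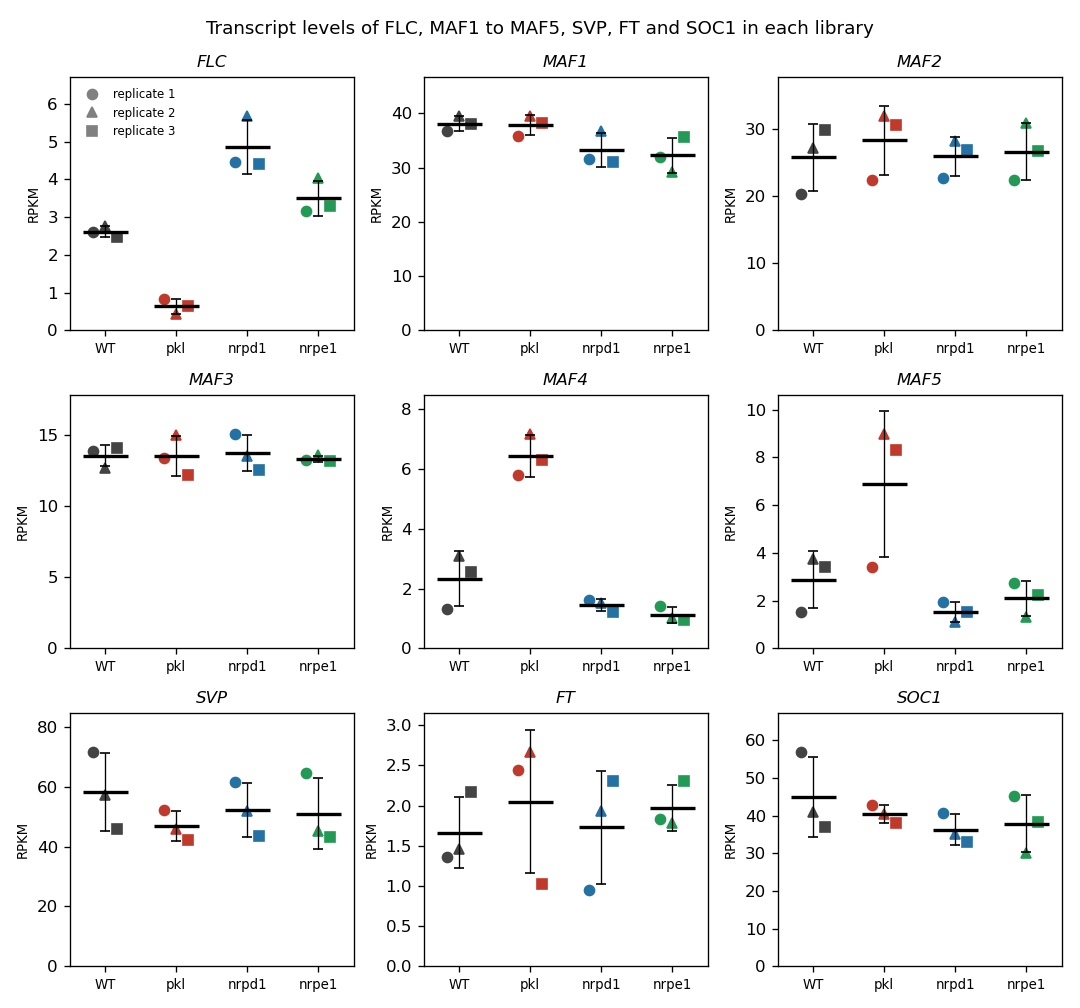
RPKM of FLC, MAF1 to MAF5, SVP, FT and SOC1 (y axes, each from 0) in the 3 libraries of WT, pkl, nrpd1 and nrpe1, with the replicate number as the symbol, the mean as a bar and the SD as the error bar. The 3 pkl libraries lie below all others for FLC and above all others for MAF4, while MAF3 stays between 12.2 and 15.1 RPKM in all 12 libraries.

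FLC was the member whose level differed most clearly between genotypes. It was at 2.61, 2.77 and 2.47 RPKM in WT replicates 1, 2 and 3, and at 0.828, 0.437 and 0.647 in pkl. The pkl values stood for 16, 10 and 11 reads, against 50, 45 and 51 in WT. All pkl libraries were below all WT libraries, and the pkl mean was 24.4% of the WT mean. FLC thus fell in pkl, by 1.91 on the log2 scale (SE 0.21, adjusted p = 0.000987). Together with MAF4, 2 of the 9 genes were called in pkl against WT, 1 lower and 1 higher, where 1.9% of all features tested were called (0.913% lower and 0.984% higher). At an unadjusted p under 0.05 there were 3 (FLC, MAF4 and MAF5), against 15.5% of features. FLC was called in all 6 fits that left out 1 pkl or WT library (adjusted p = 0.00198 to 0.00786). With the 4 libraries of replicate 2 left out, or those of replicate 3, the change was -1.66 and -1.98. The adjusted p was 0.0932 and 0.125, so the call was lost, but only 0.0434% and 0.0391% of all features were called in these fits. Without the libraries of replicate 1 FLC was called (-2.10, adjusted p = 0.0110), where 1.68% of all features were called.

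In nrpd1, FLC was at 4.46, 5.69 and 4.42 RPKM, from 88, 128 and 98 reads. In nrpe1 it was at 3.17, 4.04 and 3.29 RPKM, from 56, 31 and 64 reads. All 6 libraries lay above all WT libraries, and all nrpd1 libraries lay above all nrpe1 libraries, so that the 4 genotypes did not overlap and ranked pkl, WT, nrpe1 and nrpd1 from low to high. The nrpd1 mean was 1.86 times the WT mean (log2 fold change 0.86, SE 0.21) and the nrpe1 mean 1.34 times (0.40, SE 0.21). Neither passed the test over all features (adjusted p = 0.149 and 1), and the changes were under 2-fold. In nrpd1 the adjusted p was 0.0417 with a pseudocount of 1, with a change of 0.69 that still missed the fold threshold, and 0.0588 with voom on the recovered reads. The difference between nrpd1 and nrpe1 (0.46, SE 0.21, adjusted p = 1) also did not pass. The FLC gene is overlapped on the plus strand by an annotated antisense RNA, AT5G01675, which has no row of its own in the table. The library kit keeps strand, but the sources used here do not say whether the counting used it, so sense and antisense reads of FLC cannot be told apart.

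No member was called in nrpd1 or nrpe1 against WT, nor in nrpd1 against nrpe1, by limma or by voom (0 of 9 in each). The shares of all features called by limma were 0.972%, 0.435% and 0.613%. At an unadjusted p under 0.05 there was 1 member in nrpd1 (FLC), 2 in nrpe1 (MAF4 and MAF1) and 0 between nrpd1 and nrpe1, against 4.61%, 4% and 3.13% of features.

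**Figure D2:**
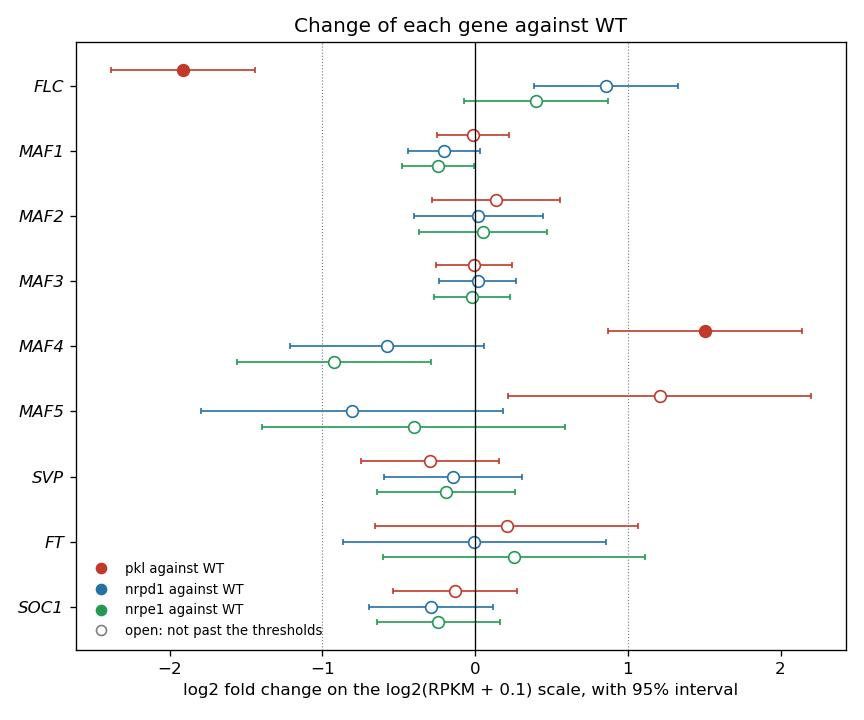
Log2 fold change of each of the 9 genes in pkl, nrpd1 and nrpe1 against WT (x axis, log2(RPKM + 0.1) scale), with the 95% interval from limma. Filled points passed both thresholds, dotted lines mark a change of 2-fold, and only FLC (-1.91) and MAF4 (1.51) in pkl are filled.

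MAF4 moved in the opposite direction to FLC in pkl. It was at 1.31, 3.09 and 2.57 RPKM in WT and at 5.79, 7.18 and 6.30 in pkl, from 26, 52 and 55 reads and from 116, 170 and 111 reads. The pkl libraries were all above the WT libraries, in which replicate 1 was the lowest. MAF4 rose 2.76-fold in the means, which was 1.51 on the log2 scale (SE 0.29, adjusted p = 0.0188). Within replicate numbers, pkl was 4.43, 2.32 and 2.45 times as high as WT. The call was lost without pkl replicate 2 (1.42, adjusted p = 0.0925) and without pkl replicate 3 (1.52, adjusted p = 0.0756). With only the WT and pkl libraries in the fit it was lost too (1.51, adjusted p = 0.0976). It was also lost without replicate 2 or 3 of every genotype (1.66 and 1.63, adjusted p = 0.281 and 0.258), where 0.0434% and 0.0391% of all features were called.

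MAF5, the next gene in the array, had a similar estimate in pkl with a wider spread. It was at 1.50, 3.73 and 3.41 RPKM in WT and at 3.39, 8.98 and 8.29 in pkl, where replicate 1 overlapped the WT libraries. The log2 fold change was 1.21 (SE 0.45, 95% interval 0.22 to 2.20, adjusted p = 0.209), which did not pass. In both genotypes replicate 1 was the low library. Within replicate numbers, pkl was 2.26, 2.41 and 2.43 times as high as WT, and with the replicate number as a block in the model the adjusted p was 0.102.

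In the RdDM mutants, MAF4 was at 1.61, 1.50 and 1.22 RPKM (nrpd1) and at 1.42, 1.01 and 0.943 RPKM (nrpe1, from 26, 8 and 19 reads). Its log2 fold changes against WT were -0.58 (SE 0.29, adjusted p = 1) and -0.92 (SE 0.29, adjusted p = 0.744). MAF5 was at 1.96, 1.10 and 1.52 RPKM in nrpd1 and at 2.75, 1.29 and 2.25 in nrpe1, with log2 fold changes of -0.81 (SE 0.45) and -0.40 (SE 0.45, adjusted p = 1 in both). None of these passed, and the sign depended on the replicate number. In replicates 2 and 3 both genes were below WT in both mutants (0.485 and 0.475 of WT for MAF4 in nrpd1, 0.326 and 0.367 in nrpe1, 0.296 and 0.447 for MAF5 in nrpd1, 0.347 and 0.659 in nrpe1). In replicate 1, where the WT library was low, both genes were above WT in both mutants (1.23 and 1.09 times for MAF4, 1.31 and 1.83 times for MAF5, in nrpd1 and nrpe1). Without replicate 1 of every genotype the change of MAF4 in nrpe1 was -1.44 (adjusted p = 0.0507).

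The other MAF genes stayed close to WT in pkl. MAF1 was at 36.9, 39.6 and 38.0 RPKM in WT and at 35.9, 39.5 and 38.2 in pkl, with a log2 fold change of -0.01 (SE 0.11, 95% interval -0.25 to 0.23), which leaves no room for a 2-fold change. MAF2 was at 20.2, 27.2 and 29.8 RPKM in WT and at 22.3, 31.9 and 30.5 in pkl (0.13, SE 0.19, 95% interval -0.29 to 0.56). MAF3 was at 13.9, 12.7 and 14.1 RPKM in WT and at 13.4, 15.0 and 12.2 in pkl (-0.01, SE 0.11, 95% interval -0.26 to 0.24). The WT and pkl libraries overlapped for all 3 genes. In the array MAF3 sits next to MAF4, and MAF2 next to MAF3. The intervals of MAF2 and MAF3 in pkl lie below that of MAF4 (0.87 to 2.14). The coding sequences of MAF2 and MAF3 are 93.6% identical. Of the exonic stretches of 50 bases, 2.46% of those of MAF3, 0.280% of those of MAF1 and 0% of those of the other 7 genes recur elsewhere in the genome.

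In nrpd1 and nrpe1, MAF1 was lower than WT in all 6 libraries, by a small amount. It was at 31.6, 36.9 and 31.1 RPKM in nrpd1 and at 32.1, 29.2 and 35.6 in nrpe1. The log2 fold changes were -0.20 (SE 0.11, adjusted p = 1) and -0.24 (SE 0.11, adjusted p = 1). The highest nrpd1 library and the lowest WT library were both at 36.9 RPKM to the digits printed. MAF2 (0.02 and 0.05) and MAF3 (0.02 and -0.02) had log2 fold changes near 0 in nrpd1 and nrpe1, whose sign changed with the library left out and, in nrpd1, with the scaling.

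SVP, the partner of FLC and MAF1 in repressing complexes, was at 71.6, 57.2 and 45.7 RPKM in WT and at 52.2, 45.9 and 42.2 in pkl. It was at 61.5, 51.8 and 43.4 in nrpd1 and at 64.5, 45.3 and 43.2 in nrpe1. The genotypes overlapped, and in each the level was highest in replicate 1 and lowest in replicate 3. The log2 fold changes were -0.30 (pkl), -0.15 (nrpd1) and -0.19 (nrpe1, SE 0.20 in each), and none passed (adjusted p = 0.570, 1 and 1). With the replicate number as a block the SE in pkl fell to 0.08 and the adjusted p to 0.0467, with a change that stayed well under 2-fold.

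FT, the mobile flowering signal that FLC represses, was scarce in all genotypes. It was at 1.36, 1.46 and 2.17 RPKM in WT and at 2.45, 2.67 and 1.03 in pkl, from 21, 19 and 36 reads and from 38, 49 and 14 reads. It was at 0.946, 1.94 and 2.30 in nrpd1 and at 1.83, 1.79 and 2.31 in nrpe1. The genotypes overlapped, with 2 pkl libraries above and 1 below all WT libraries. The log2 fold change in pkl was 0.21 (SE 0.39, 95% interval -0.65 to 1.06, adjusted p = 0.896). In nrpd1 it was -0.0046 (interval -0.86 to 0.85) and in nrpe1 0.25 (interval -0.60 to 1.11, adjusted p = 1 in both). The intervals in pkl and nrpe1 thus include a 2-fold rise. Of 3 genes of phloem companion cells, where FT is made, SUC2, which codes for a sucrose transporter, was lower in pkl (36.5 RPKM against 85.7 in WT, log2 fold change -1.25, SE 0.19, adjusted p = 0.00568), while AHA3 (57.8 against 58.7) and APL (9.16 against 9.77) were not called. The summed level of the 3 genes was 93.5 to 118 RPKM in pkl and 130 to 178 in WT, and none of the 3 was at 0. Its part in the FT values was not tested.

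SOC1, a MADS-box activator of flowering that FLC represses and FT activates, was at 56.9, 41.0 and 36.9 RPKM in WT. It was at 42.8, 40.4 and 38.0 in pkl, at 40.8, 35.2 and 33.0 in nrpd1 and at 45.2, 30.1 and 38.4 in nrpe1. The genotypes overlapped. The log2 fold change in pkl was -0.13 (SE 0.18, 95% interval -0.54 to 0.27, adjusted p = 0.842), an interval without a 2-fold change in either direction. In nrpd1 it was -0.29 and in nrpe1 -0.24 (SE 0.18, adjusted p = 1 in both). FLC was thus at 24.4% of its WT level in pkl while no change of FT or SOC1 passed the test.

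The differences were widest between pkl and the RdDM mutants. Against the mean of nrpd1 and nrpe1, 3 of the 9 genes were called in pkl, 1 lower and 2 higher, where 3.16% of all features were called (1.54% lower and 1.62% higher). On the log2 scale FLC differed by -2.55 (SE 0.18, adjusted p = 2.66e-05), MAF4 by 2.26 (SE 0.25, adjusted p = 0.000431) and MAF5 by 1.81 (SE 0.39, adjusted p = 0.0218). All 3 pkl libraries were below all 6 RdDM libraries for FLC and above them for MAF4 and MAF5. The call for MAF5 was lost without pkl replicate 2 (1.56, adjusted p = 0.128) or pkl replicate 3 (1.62, adjusted p = 0.122), and without replicate 2 or 3 of every genotype (1.31 and 1.67, adjusted p = 0.380 and 0.352). In the last 2 settings the call for MAF4 was also lost (2.16 in both, adjusted p = 0.0578 and 0.0736), and 0.573% and 0.677% of all features were called. MAF1 to MAF3, SVP, FT and SOC1 lay between -0.13 and 0.21 in this comparison, which uses the same pkl libraries as the comparison with WT.

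**Figure D3:**
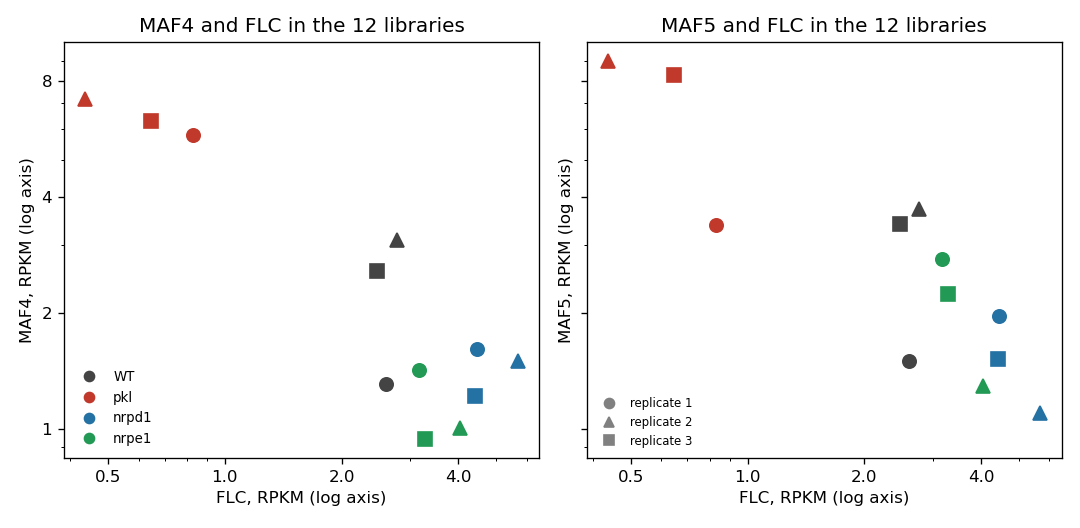
MAF4 (left) and MAF5 (right) against FLC in the 12 libraries, in RPKM on log axes, with the genotype as the colour and the replicate number as the symbol. The pkl libraries stand alone at the lowest FLC values (0.437 to 0.828), and the nrpd1 libraries at the highest (4.42 to 5.69).

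Across the 12 libraries, FLC ran opposite to MAF4 (r = -0.90 on the log2 scale) and MAF5 (r = -0.89), and MAF4 ran with MAF5 (r = 0.87). These points share genotypes and replicate numbers and are given as a description. After the genotype means were taken out, r was -0.18 for FLC and MAF4, -0.70 for FLC and MAF5, and 0.71 for MAF4 and MAF5, so FLC and MAF4 were opposed mainly through the genotypes. In WT, replicate 1 held the lowest MAF4 and MAF5 without the highest FLC.

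The replicate number was a second source of differences among the 9 genes. SVP and SOC1 were higher in replicate 1 than in replicates 2 and 3 in 4 of 4 genotypes, which held for 11.3% of all features tested, and MAF2 was lower in replicate 1 in 4 of 4, which held for 22% of them. SVP ran with SOC1 over the 12 libraries (r = 0.78) and opposite to MAF2 (r = -0.81), and with genotype means taken out r was 0.86 and -0.82. MAF4 and MAF5 were lowest in replicate 1 in WT and pkl, but highest in replicate 1 in nrpd1 and nrpe1. The summed level of 10 circadian clock genes was 257 to 291 RPKM in replicate 1 and 388 to 490 in replicates 2 and 3, and that of 5 leaf mesophyll genes 40044 to 43087 against 27316 to 34034. Of the mesophyll genes, CAB1, CAB2, RBCS2B and RCA were highest in replicate 1 in each genotype. RBCS1A was lowest in replicate 1 in WT (8679, 10620 and 9084 RPKM) and pkl (8933, 11714 and 9022), and highest there only in nrpd1. The clock genes did not move together. In each genotype CCA1, LHY, PRR9, PRR7, PRR5 and GI were higher in replicate 1 than in replicates 2 and 3, and TOC1, ELF3, ELF4 and LUX were lower. In WT, CCA1 was at 12.6, 1.82 and 1.58 RPKM and TOC1 at 21.5, 70.4 and 80.1 in replicates 1, 2 and 3. The part of the clock and mesophyll genes in the values of the 9 genes was not tested, and the labels do not say what a replicate number stands for.

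**Figure D4:**
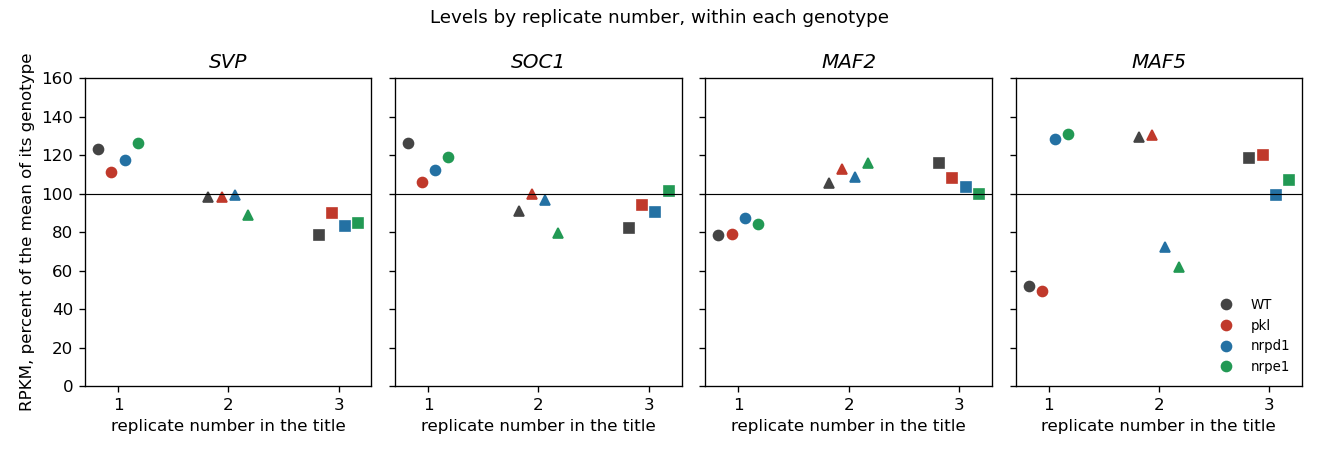
RPKM of SVP, SOC1, MAF2 and MAF5 in each library as a percentage of the mean of its genotype (y axis, from 0), by replicate number (x axis), with the genotype as the colour. SVP and SOC1 are above and MAF2 below 100% in replicate 1 of all 4 genotypes, whereas MAF5 is low in replicate 1 of WT and pkl and high in replicate 1 of nrpd1 and nrpe1.

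Upstream and downstream of the 9 genes, 75 genes of flowering time control were taken from lists of the pathway, and 72 of them were tested. In pkl against WT, 0 of 72 were called higher and 2 lower, beside 0.984% and 0.913% of all features, and voom called 3 lower and 0 higher. Without adjustment, 11 of 72 had a p under 0.05, which is near the 15.5% of all features. Both called genes belonged to the 12 genes of the FT family and the floral meristem. AGL24, a MADS-box activator of flowering that works with SOC1, was at 13.6, 12.0 and 11.5 RPKM in WT and at 4.66, 5.62 and 3.81 in pkl, without overlap (log2 fold change -1.39, SE 0.14, adjusted p = 0.000664). FUL, a MADS-box gene of the inflorescence meristem, was at 1.62, 1.92 and 1.64 RPKM in WT and at 0.195, 0.536 and 0.388 in pkl, from 33 to 36 reads and from 4 to 13 reads (-2.02, SE 0.32, adjusted p = 0.00795). Both therefore fell in pkl, beside an FT and a SOC1 that did not pass the test. The call for FUL was lost with a pseudocount of 1 (-0.996, under 2-fold, adjusted p = 0.00822) and with only the WT and pkl libraries (-2.02, adjusted p = 0.0501). Both calls were lost without replicate 2 or 3 of every genotype (adjusted p = 0.0702 to 0.227), where 0.0434% and 0.0391% of all features were called. With the replicate number as a block, 6 of the 72 genes were called lower in pkl, which added LFY, SPL5, SPL9 and SNZ, where 3.5% of all features were called.

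In pkl against WT, limma called 1.9% of all features, and 15.5% had an unadjusted p under 0.05. No gene was called in this comparison in the lists that act on FLC or beside it. This held for the autonomous pathway, which lowers FLC (0 of 8 by limma and voom, 0 at an unadjusted p under 0.05). The same was seen for the FRIGIDA, PAF1 and SWR1 complexes and the histone methyltransferases SDG8 and ATX1, which can raise FLC (0 of 15, and 0). These are mRNA levels, and the activity of the proteins in these plants was not measured. It held as well for vernalization and Polycomb genes, which silence FLC (0 of 7, and 1). The 1 gene was SWN, which codes for an H3K27 methyltransferase of Polycomb and was at 9.75, 11.5 and 14.0 RPKM in WT and at 16.6, 18.7 and 23.1 in pkl, without overlap (0.73, SE 0.16, adjusted p = 0.0355), under the fold threshold. It also held for the photoperiod genes upstream of FT (0 of 12, and 0), for the SOC1 relatives and SPL genes (0 of 8, and 3) and for 10 other floral repressors (0 of 10, and 3). Among the SOC1 relatives, AGL14 passed the adjusted p but not the fold threshold, with means of 2.37 RPKM in pkl and 4.43 in WT and no overlap (-0.86, SE 0.18, adjusted p = 0.0261). The median log2 fold change of the 72 genes was 0.01 in pkl, beside 0.07 over all features. The lists differed in their medians, which were -0.53 for the FT family and floral meristem genes and -0.70 for the SOC1 relatives and SPL genes, and from -0.05 to 0.19 for the other 5 lists. CO, which turns on FT in long days, was at 0.458, 0.998 and 1.50 RPKM in WT and at 1.12, 1.27 and 1.47 in pkl (0.47, SE 0.56, adjusted p = 0.794). FD, the partner of FT at the shoot apex, had a mean of 3.44 RPKM in WT and of 2.68 in pkl (-0.28, SE 0.29, adjusted p = 0.759), and TSF, a close relative of FT, was at 0 to 8 reads in all 12 libraries. In nrpd1 and nrpe1 against WT 0 of the 72 genes were called by limma or voom (0 and 1 at an unadjusted p under 0.05). Limma called only 0.972% and 0.435% of all features there, with 4.61% and 4% at an unadjusted p under 0.05.

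**Figure D5:**
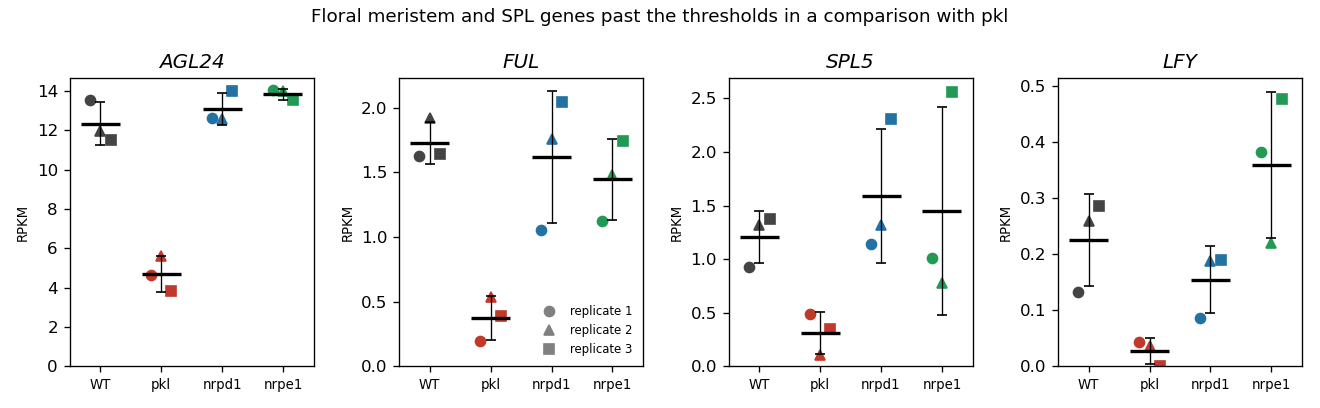
RPKM of AGL24, FUL, SPL5 and LFY (y axes, each from 0) in the 3 libraries of each genotype, with the replicate number as the symbol, the mean as a bar and the SD as the error bar. The pkl libraries of all 4 genes are below the libraries of the other genotypes, with LFY at 0 or 1 read in each pkl library.

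Against the mean of nrpd1 and nrpe1, 4 of the 72 genes were called lower in pkl and 0 higher, beside 1.54% and 1.62% of all features (7 and 0 with the replicate block, which added TFL1, AP1 and SNZ, where 4.8% of all features were called). Beside AGL24 (-1.52, adjusted p = 6.03e-05) and FUL (-1.82, adjusted p = 0.00341) these were SPL5 and LFY. The call for FUL was lost with a pseudocount of 1 (-0.88, under 2-fold) and without replicate 2 or 3 of every genotype (-2.02 and -1.72, adjusted p = 0.103 and 0.153). Without replicate 2 or 3, only 0.573% and 0.677% of all features were called in this comparison. SPL5, a transcription factor that promotes the change to flowering, was at 0.491, 0.104 and 0.349 RPKM in pkl, at 1.14, 1.32 and 2.30 in nrpd1 and at 1.01, 0.774 and 2.56 in nrpe1 (-1.98, SE 0.42, adjusted p = 0.0209). Its call was lost without pkl replicate 2 (-1.53, adjusted p = 0.113) or pkl replicate 3 (-2.10, adjusted p = 0.0677), without replicate 2 or 3 of every genotype (adjusted p = 0.238 and 0.219), with a pseudocount of 1 (-0.90, under 2-fold) and with only the groups compared (adjusted p = 0.0530). LFY, which sets floral meristem identity, had 0 or 1 read in each pkl library and 2 to 11 in the RdDM libraries, so that its fitted value (-1.41, SE 0.31, adjusted p = 0.0232) depends on the pseudocount, and its call was lost without any 1 of 6 of the 9 libraries (adjusted p = 0.0509 to 0.127), without any replicate number (adjusted p = 0.0789 to 0.393) and with a pseudocount of 1 (adjusted p = 0.0629).

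Markers of other cell types also differed in this comparison. Of the 4 floral organ genes, AG, which sets stamen and carpel identity, was called lower in pkl (0.0418 RPKM against 0.204, log2 fold change -1.12, SE 0.26, adjusted p = 0.0344). AG had 0 to 2 reads in each pkl library, 7 to 10 in nrpd1 and 2 to 5 in nrpe1, so its fitted value depends on the pseudocount. The same holds for AP3, with 1 to 2 reads in each pkl library. AP3 (-0.93, adjusted p = 0.224) and SEP3 (-0.81, adjusted p = 0.104) did not pass, and PI (1.02, adjusted p = 0.152) was called higher only with the replicate block (adjusted p = 0.0214). The summed level of these 4 genes was 3.35 to 4.72 RPKM in pkl and 4.18 to 7.54 in the RdDM libraries, and none was at 0 in all libraries. Of 5 root genes, TIP2;3, an aquaporin gene, was called lower (1.23 RPKM against 7.74, -2.50, SE 0.60, adjusted p = 0.0380), while the other 4 were not called. Their sum with it was 1038 to 1385 RPKM in pkl and 1093 to 1483 in the RdDM libraries. This sum was mostly PYK10, with means of 1115 RPKM in pkl and 1272 in the RdDM libraries. CASP1, SCR and SHR had means of 23.9, 12.1 and 6.31 RPKM in pkl. SUC2 was lower here too (-1.21, SE 0.16, adjusted p = 0.00158), the only 1 of the 3 phloem genes that was called. The part of these markers in the values of the floral meristem genes was not tested.

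Some features had a pattern over the 12 libraries close to that of the called members. Most like FLC by Pearson correlation on the log2 scale were MYB86 (r = 0.96), AT1G66650 (r = 0.96) and GLN1;4 (r = 0.95), whose means were 1.45, 0.0556 and 2.04 RPKM in pkl and 2.54, 0.649 and 5.36 in WT. Most like MAF4 were AT2G40935 (r = 0.96), AT5G57150 (r = 0.95) and AT3G58540 (r = 0.95), whose means were 10.1, 15.6 and 3.87 RPKM in pkl and 7.87, 10.4 and 1.79 in WT. They were picked for this likeness, so the values are a description.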

How the data were processed

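Poly(A) mRNA of 12 samples, 3 for each of 4 genotypes, was sequenced from stranded paired-end libraries. Per the labels and the methods of the study, the authors trimmed bases under quality 30 (Trim Galore 0.4.0, after CASAVA 1.8), aligned reads to TAIR10 and counted them over genes and TEs with Subread 1.5.1, and used edgeR for their tests. The deposited values are RPKM as the authors computed them, which divide by feature length and library total. The handling of strand and of reads with several positions in the counting is not given in the sources used here. All columns with sample values were used (0 unused).

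Since each RPKM value is a whole number of steps of 1 read, reads were recovered for 100% of the 28130 features above 0 (tolerance 0.0001 reads, 0.01 for the most abundant), and 99.97% of 15137 recovered lengths were whole numbers. The recovery and the model were tested on simulated data. Reads that share a common factor in all libraries come out too low. The test on RPKM was that of limma 3.58.1, run in R 4.3.3 (eBayes with a trend, 1 mean per genotype, all 12 libraries, no covariate) on log2(RPKM + 0.1), a scale that understates changes of low genes, for the 23669 features with at least 0.1 RPKM in at least 3 libraries. Tests are two-sided, with p-values adjusted over all features by the Benjamini-Hochberg method. A fold change is on this scale unless it is called a ratio of means. An exact test of 3 against 3 libraries cannot go below p = 0.1 and was not used. The labels do not say whether replicates were separate growths, so p-values measure the spread between these libraries.

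Replicate numbers come from the sample titles. Deviations from the genotype means correlated in all 18 pairs of libraries with the same number (r = 0.15 to 0.60, against -0.48 to 0.23 for different numbers), so the number was used as a block in an alternative fit. Other alternatives were pseudocounts of 0.01 and 1, no filter, a filter at 1 RPKM, scaling by median ratios, voom on recovered reads, only the groups compared, and leaving out 1 library or 1 replicate number. Named are the 9 genes, the list genes called in any comparison, CO, FD and TSF, and the 3 features most like FLC and MAF4. SNZ, SPL9, MIPS3, ANNAT2, AT5G10130, AT5G10160, SWN, AGL14, single marker genes and the genes added by the block were named after their values were seen. The genes, lists and tests were chosen with earlier results of these data known. Gene names, positions and sequences are from RefSeq (TAIR10.1, read with Biopython 1.88), whereas the table gives identifiers and no coordinates.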

Additional observations from a re-analysis of the deposited data

How the results depend on the processing

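Directions and calls of FLC held in pkl under all 8 other settings with 12 libraries or with only the groups compared (-2.07 to -1.15, adjusted p = 0.00066 to 0.0301). The number of members called in pkl against WT, 2 of 9, was 1 with only the groups compared, and 0 to 2 with a library or a replicate number left out. Against the mean of nrpd1 and nrpe1 it was 3, and 1 to 3 with a library or number left out. The replicate block, for which the numbers pair the samples, left both counts at 2 and 3. It raised the number of flowering list genes called from 2 to 6 in pkl against WT and from 4 to 7 against the mean of nrpd1 and nrpe1. No other call of a member or flowering list gene changed. Among the marker genes the block added TIP2;3 in pkl against WT (-1.94, adjusted p = 0.190 without and 0.00262 with it). It also added PI against the mean of nrpd1 and nrpe1. The counts of flowering list genes were 1 and 1 with a pseudocount of 1, and 1 in pkl against WT with only the groups compared. With a library or number left out they were 0 to 3 and 1 to 5. Counts of members called in the other 3 comparisons were 0 throughout. Signs of changes near 0 turned. In nrpd1 against WT, MAF2 was at -0.0244 and MAF3 at -0.0299 with scaling by median ratios, and FT at 0.0123 with a pseudocount of 1. With a library or number left out, log2 fold changes in pkl ran from -0.0431 to 0.0266 (MAF1), -0.029 to 0.296 (MAF2), -0.131 to 0.0919 (MAF3), -0.106 to 0.814 (FT) and -0.26 to 0.0523 (SOC1). In nrpd1 they ran from -0.142 to 0.137 (MAF2), -0.053 to 0.106 (MAF3), -0.308 to 0.0157 (SVP) and -0.245 to 0.356 (FT), and in nrpe1 from -0.111 to 0.172 (MAF2), -0.0802 to 0.0162 (MAF3) and -1.02 to 0.126 (MAF5). The causes were not tested. Scaling by median ratios moved the median of all features by less than 0.1 on the log2 scale in each comparison. Depth limits FLC, MAF4, MAF5 and FT, which had as few as 10, 8, 10 and 11 reads in a library.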

Other observations

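SNZ and SPL9, a floral repressor of the AP2 family and a transcription factor that promotes the change from the juvenile to the adult phase, stood out in pkl once the replicate number was in the model. SNZ was at 16.0, 11.1 and 4.68 RPKM in WT and at 3.41, 3.59 and 1.31 in pkl, with a log2 fold change of -1.85 that had an SE of 0.70 without the block (adjusted p = 0.217) and of 0.25 with it (adjusted p = 0.00176). SPL9 was at 11.1, 4.72 and 3.77 RPKM in WT and at 4.70, 2.11 and 2.34 in pkl (-1.004, adjusted p = 0.389 without and 0.0012 with the block). In each genotype replicate 1 of SPL9 was above replicates 2 and 3.

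The genes beside FLC and beside the MAF2 to MAF5 array were compared as a description of these loci, with 3 genes taken on each side. Of the 5 tested neighbours of FLC, 0 were called in pkl against WT by limma or voom, where limma called 1.9% of all features. At an unadjusted p under 0.05 there were 3, against 15.5% of all features. All 5 had a higher estimate in pkl. The median log2 fold change of all features was also above 0 (0.0724, and -0.0029 with scaling by median ratios). AT5G10160 passed the adjusted p but not the fold threshold (0.49, SE 0.12, adjusted p = 0.0472). MIPS3, an inositol phosphate synthase gene, was at 38.8 RPKM in pkl and 20.8 in WT (0.90, SE 0.15, adjusted p = 0.00825), under the fold threshold and in the opposite direction to FLC. AT5G10130 had an estimate of 1.09 (adjusted p = 0.138, and 0.0194 with the replicate block, where it was called). Of the 5 tested neighbours of the array, 0 were called and 3 had an unadjusted p under 0.05, beside the same shares of all features. An estimate above WT was found for 4 of the 5, beside the same median of all features. ANNAT2, an annexin gene, was at 103 RPKM in pkl and 63.6 in WT (0.69, SE 0.13, adjusted p = 0.0152), also under the fold threshold.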
